A study of Zea mays with 6 samples.

Results

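Auxin response factors (ARFs) were compared between zmte1-2 and WT maize nodes over 4 genes, ZmARF4 (GRMZM2G034840), ZmARF29 (GRMZM2G086949), ZmARF30 (GRMZM2G475882) and GRMZM2G317900, which the deposited annotation describes as auxin response factor 7. They were taken by gene identifier from the 5546 genes of the deposited table, in which 7 genes in all carry an ARF annotation. The mutant zmte1-2 is a dwarf line from EMS mutagenesis, backcrossed to the inbred line B73, with a premature stop in *TERMINAL EAR 1* (*ZmTE1*), which encodes an RNA-binding protein. WT is B73. Both genotypes were grown in the field without treatment, and RNA of nodes (with internodes by the labels and the study's Results) was sequenced from 3 zmte1-2 libraries and 3 WT libraries at 28 days. The mutant is represented by 1 allele. No source says whether library numbers stand for replicate samples or for node positions on the stem, and the study's Methods describe the collection of 3 nodes. They were treated as replicates here. If they are positions, every SD, n and p below also holds differences between nodes. Whether each library came from its own plants is not stated either, and the p-values therefore reflect no more than the variation among these 6 libraries, which may be technical.

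ARFs are transcription factors that bind auxin response elements in the promoters of auxin-regulated genes. At low auxin, Aux/IAA repressors hold inactive those ARFs that they bind, which need not be every ARF. When auxin binds the TIR1-type receptors, the Aux/IAA proteins are degraded and these ARFs are released. Genes such as *SAUR*, *GH3* and *Aux/IAA* itself then respond. In *Arabidopsis*, some ARFs activate transcription, among them ARF5 (MONOPTEROS), which is needed for the embryonic axis and vascular tissue, ARF7, which acts in tropic growth and lateral root formation, and ARF8, which acts in flower maturation. The numbers in the maize gene names and in the protein descriptions follow different schemes, so a shared number does not mark an orthologue.

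All 4 genes carried the ARF label in the transcription factor column and the ARF orthology of KEGG, as their name says. ZmARF4 lies on chromosome 2 from 3342917 to 3349175 on the plus strand, has 2 annotated transcripts and is described as auxin response factor 4. ZmARF29, on chromosome 10 from 146553165 to 146558259 on the minus strand, has 1 transcript and is described as auxin response factor 5. ZmARF30 lies on the same strand of chromosome 10 from 147154383 to 147163265, has 2 transcripts and is described as auxin response factor 8. The gap between ZmARF29 and ZmARF30 is 596123 bp and holds 0 other listed genes. GRMZM2G317900 lies on chromosome 5 from 57456264 to 57463575 on the plus strand and has 1 transcript. No build is named for these coordinates in the sources used here. The values are per gene, so that transcripts of a gene were not told apart.

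The values are FPKM, that is, fragments divided by transcript length and by library size, for genes that the authors had called between these same libraries. Depth in fragments is unknown and no counting interval can be set. Summed over the listed genes, the FPKM came to between 87963 and 88628 in zmte1-2 libraries and between 74348 and 86257 in WT libraries. Over the listed genes, zmte1-2 library 2 correlated with zmte1-2 libraries 1 and 3 at 0.782 and 0.699 on the log2 scale, while these correlated with each other at 0.944 (across genes, which are not independent replicates). WT library 1 correlated with WT libraries 2 and 3 at 0.870 and 0.894, against 0.948 between those. The mutated gene ZmTE1 stood at 0.33, 0.1 and 0.49 FPKM in zmte1-2 libraries 1 to 3 and at 0.51, 1.19 and 1 FPKM in WT libraries 1 to 3. Its highest zmte1-2 value lay only just under its lowest WT value. It was not tested, since fewer than 3 libraries reached 1 FPKM. Tests were run with limma on log2(FPKM + 0.5) for the 3987 genes with at least 1 FPKM in at least 3 libraries. An adjusted p under 0.05, by Benjamini-Hochberg over all of these, counted as a call. In a fit without the FPKM minimum, ZmTE1 was not called (log2 fold change -0.79, SE 0.31, limma adjusted p = 0.0777). Fold changes on this scale understate the change of weakly expressed genes. Because the listed genes had been selected on the same libraries, an adjusted p cannot be read as a rate of false calls.

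ZmARF4, ZmARF29 and ZmARF30 fell in zmte1-2 and GRMZM2G317900 did not pass the test. Among all tested genes 40.2% were called, 34.2% lower and 6.02% higher, so a call in the lower direction was frequent in this table. In whole nodes, fewer cells of a type and less RNA per cell cannot be told apart. ZmARF4 and ZmARF29 met the FPKM minimum through the WT libraries alone. At their zmte1-2 level in both genotypes they would not have been tested. The count of 3 lower genes is therefore given as a description. Without the minimum, limma also called ZmARF4, ZmARF29 and ZmARF30 lower, where 22.1% of the listed genes were called lower and 3.5% higher.

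ZmARF4 was expressed at 0.93, 0.51 and 0.84 FPKM in zmte1-2 libraries 1 to 3 and at 4.65, 4.57 and 5.05 FPKM in WT libraries 1 to 3. The genotypes did not overlap, and zmte1-2 library 2 was the lowest of all. The mean was 0.760 ± 0.221 FPKM in zmte1-2 and 4.76 ± 0.257 FPKM in WT (SD, n = 3 each), a ratio of WT to zmte1-2 of 6.26. The log2 fold change was -2.08 with an SE of 0.30 and a 95% confidence interval from -2.79 to -1.36 (limma adjusted p = 0.0114). Of the tested genes, 8.73% had a lower log2 fold change.

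ZmARF29 was the weakest of the 4 genes in every library, at 0.19, 0.14 and 0.15 FPKM in zmte1-2 libraries 1 to 3 and at 1.26, 1.22 and 1.21 FPKM in WT libraries 1 to 3. The genotypes did not overlap, and the libraries of 1 genotype lay close together, with a coefficient of variation of 16.5% in zmte1-2 and 2.15% in WT. The mean was 0.160 ± 0.0265 FPKM in zmte1-2 and 1.23 ± 0.0265 FPKM in WT (SD, n = 3 each), so that the ratio of WT to zmte1-2, 7.69, was the largest of the 4. The log2 fold change of -1.39 (SE 0.20, 95% confidence interval from -1.85 to -0.93, limma adjusted p = 0.0111) was smaller in size than that of ZmARF4. The added 0.5 exceeds the zmte1-2 values of ZmARF29, and the size depended on what was added. With an added 0.1 ZmARF29 was at -2.36 (limma adjusted p = 0.0158), still smaller in size than ZmARF4 at -2.53. With an added 1 it was at -0.94 (limma adjusted p = 0.0115), beside -1.72 for ZmARF4. Only on the FPKM without any addition was ZmARF29 the larger, with a difference of the mean log2 values of -2.95, beside -2.69 for ZmARF4.

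ZmARF30, an abundant ARF of the WT nodes, was expressed at 8.98, 15.97 and 6.52 FPKM in zmte1-2 libraries 1 to 3 and at 35.32, 24.75 and 32.04 FPKM in WT libraries 1 to 3. Every zmte1-2 library was below every WT library, and zmte1-2 library 2 was the nearest to WT, in contrast to its place in ZmARF4 and ZmARF29. The mean was 10.5 ± 4.90 FPKM in zmte1-2 and 30.7 ± 5.41 FPKM in WT (SD, n = 3 each), a ratio of WT to zmte1-2 of 2.93. The log2 fold change was -1.58 with an SE of 0.45 and a 95% confidence interval from -2.64 to -0.53 (limma adjusted p = 0.0364). It became -0.45 on rescaling by median of ratios and was no longer called (limma adjusted p = 0.528). The call was also lost without any 1 of 5 libraries (limma adjusted p = 0.124 on dropping zmte1-2 library 1 and 0.0807 on dropping zmte1-2 library 3, and 0.111, 0.0537 and 0.131 on dropping WT library 1, 2 or 3), and it was held without zmte1-2 library 2 (log2 fold change -1.92, limma adjusted p = 0.00786). Over all 3987 tested genes limma called 2, 775, 158, 1179 and 3 in those 5 fits, in the same order. Without zmte1-2 library 2 it called 2754, beside 1603 with all libraries.

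GRMZM2G317900 was expressed at 56.34, 17.41 and 49.99 FPKM in zmte1-2 libraries 1 to 3 and at 9.87, 22.37 and 19.14 FPKM in WT libraries 1 to 3. Here the genotypes overlapped, because zmte1-2 library 2 lay below WT libraries 2 and 3 while zmte1-2 libraries 1 and 3 lay above all WT libraries. The mean was 41.2 ± 20.9 FPKM in zmte1-2 and 17.1 ± 6.49 FPKM in WT (SD, n = 3 each). The log2 fold change was 1.15 with an SE of 0.59 and a 95% confidence interval from -0.23 to 2.54 (limma adjusted p = 0.117), which leaves room for no change as well as for a rise. Without zmte1-2 library 2 it was called higher (log2 fold change 1.68, limma adjusted p = 0.0172), as it was without both this library and WT library 1 (1.34, limma adjusted p = 0.0211). In these fits limma called 805 and 755 of the 3987 tested genes higher, beside 240 with all libraries. Calls in the higher direction were thus more frequent over the whole table there. GRMZM2G317900 was the only one of the 4 genes with a positive fold change.

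**Figure D1:**
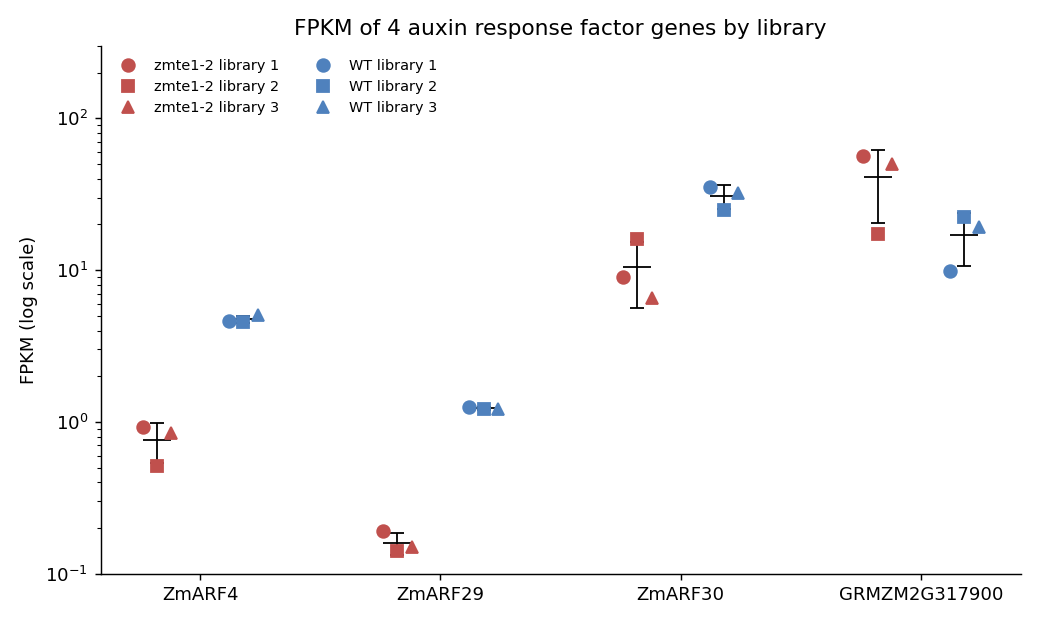
FPKM (log axis) of the 4 ARF genes in each library, with zmte1-2 left of WT for each gene; points are libraries, horizontal bars the mean and whiskers the SD (n = 3). ZmARF4, ZmARF29 and ZmARF30 lie lower in all 3 zmte1-2 libraries than in all 3 WT libraries, whereas GRMZM2G317900 overlaps through zmte1-2 library 2 at 17.41 FPKM.

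Every zmte1-2 library was below every WT library in 3 of the 4 genes, and among all listed genes this was so for 48.8%, with 11.4% having every zmte1-2 library above. Single genes cannot pass an exact permutation test over 3 against 3 libraries, whose smallest two-sided p is 0.1. This was the p of ZmARF4, ZmARF29 and ZmARF30, and GRMZM2G317900 gave an exact permutation p of 0.3.

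The order of the 4 genes by level differed between the genotypes at the top. In all zmte1-2 libraries GRMZM2G317900 was the highest, followed by ZmARF30, ZmARF4 and ZmARF29. In all WT libraries ZmARF30 was the highest, followed by GRMZM2G317900, ZmARF4 and ZmARF29. The first 2 places lay close together in zmte1-2 library 2 (17.41 FPKM for GRMZM2G317900 and 15.97 FPKM for ZmARF30) and in WT library 2 (22.37 and 24.75 FPKM for the same genes).

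A ratio of 2 genes within a library does not depend on how that library was scaled, and therefore the 6 pairs of genes were compared by their log2 ratio. The ratio of ZmARF30 to GRMZM2G317900 was 0.159, 0.917 and 0.130 in zmte1-2 libraries 1 to 3 and 3.58, 1.11 and 1.67 in WT libraries 1 to 3. It was below 1 in every zmte1-2 library and above 1 in every WT library, and its mean log2 value was -1.90 ± 1.55 in zmte1-2 and 0.91 ± 0.86 in WT (SD, n = 3 each; exact permutation p = 0.1, adjusted p = 0.12 over the 6 pairs). The distance was small between the second libraries, at 0.917 in zmte1-2 and 1.11 in WT.

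The ratio of ZmARF4 to ZmARF29 overlapped between the genotypes. ZmARF4 was 4.89, 3.64 and 5.60 times ZmARF29 in zmte1-2 libraries 1 to 3 and 3.69, 3.75 and 4.17 times in WT libraries 1 to 3 (exact permutation p = 0.4, adjusted p = 0.4 over the 6 pairs). The difference of the mean log2 ratios was 0.26, at 2.21 ± 0.32 in zmte1-2 and 1.95 ± 0.10 in WT (SD, n = 3 each), smaller than the SD in zmte1-2 but larger than that in WT. Relative to ZmARF30, both lay lower in every zmte1-2 library than in any WT library. The ratio of ZmARF4 to ZmARF30 was 0.104, 0.0319 and 0.129 in zmte1-2 libraries 1 to 3 and 0.132, 0.185 and 0.158 in WT libraries 1 to 3, with little distance between the highest zmte1-2 and the lowest WT library. The ratio of ZmARF29 to ZmARF30 was 0.0212, 0.00877 and 0.0230 in zmte1-2 libraries 1 to 3 and 0.0357, 0.0493 and 0.0378 in WT libraries 1 to 3. Set against GRMZM2G317900, ZmARF4 was 0.0165 to 0.0293 of its level in zmte1-2 libraries and 0.204 to 0.471 in WT libraries, and ZmARF29 was 0.00300 to 0.00804 of it in zmte1-2 libraries and 0.0545 to 0.128 in WT libraries. For these pairs the mean log2 difference between zmte1-2 and WT was -3.87 for ZmARF4 and -4.13 for ZmARF29. The genotypes did not overlap in 5 of the 6 pairs, each with the smallest exact p the design allows and an adjusted p of 0.12, so no pair passed.

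**Figure D2:**
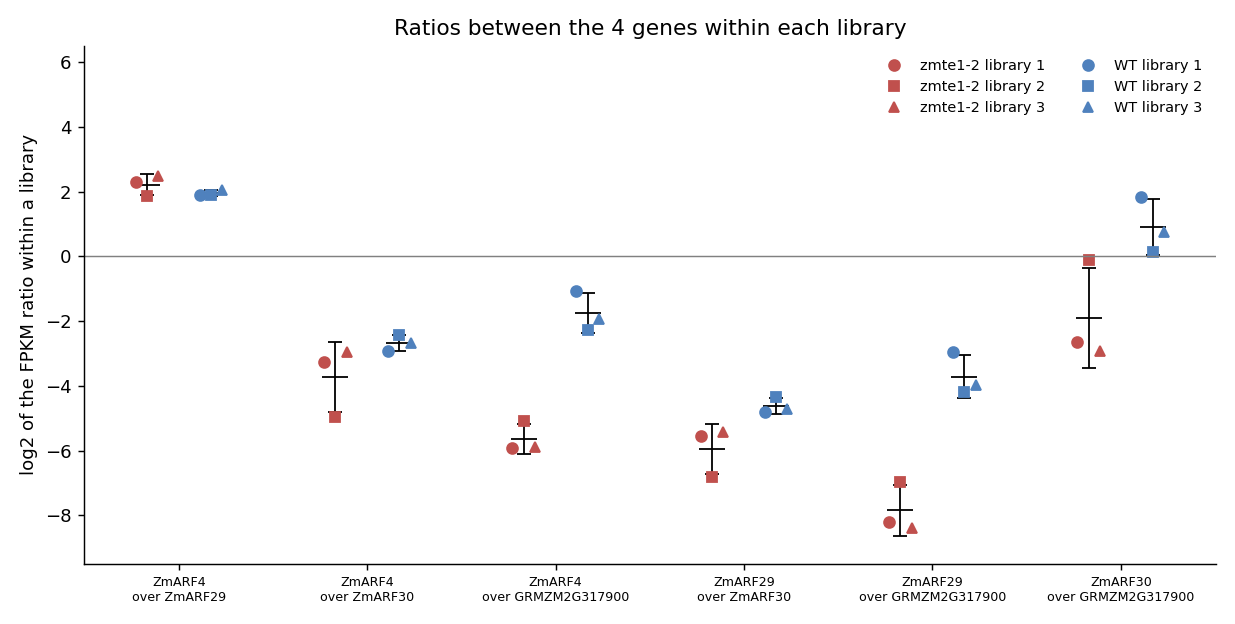
Log2 of the FPKM ratio of 2 ARF genes within each library for the 6 pairs, with zmte1-2 left of WT; points are libraries, horizontal bars the mean and whiskers the SD (n = 3), and the grey line marks equal levels. The ratio of ZmARF30 to GRMZM2G317900 is below the line in the zmte1-2 libraries and above it in the WT libraries, while that of ZmARF4 to ZmARF29 overlaps.

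The libraries of 1 genotype also differed from each other, in opposite ways for different genes. On the log2 scale, zmte1-2 library 2 stood at 1.06 above the mean of zmte1-2 libraries 1 and 3 for ZmARF30, and at -0.79 for ZmARF4, -0.27 for ZmARF29 and -1.61 for GRMZM2G317900. WT library 1 stood at 0.33 relative to the mean of WT libraries 2 and 3 for ZmARF30, at -0.05 for ZmARF4, at 0.05 for ZmARF29 and at -1.07 for GRMZM2G317900. ZmARF4 and ZmARF29 were thus almost level over the WT libraries, and GRMZM2G317900 varied by more than any of the others in both genotypes, with a coefficient of variation of 50.6% in zmte1-2 and 37.9% in WT.

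The other 3 listed ARF genes were ZmARF34, ZmARF32 and GRMZM5G808366. ZmARF34 (GRMZM2G081158, described as auxin response factor 25) was expressed at 8.66, 11.5 and 9.95 FPKM in zmte1-2 libraries 1 to 3 and at 29.76, 22.29 and 28.84 FPKM in WT libraries 1 to 3, near the levels of ZmARF30, and it fell (log2 fold change -1.38, SE 0.36, limma adjusted p = 0.0316). ZmARF32 (GRMZM2G181254) was at 0.07, 0.44 and 0.17 FPKM in zmte1-2 libraries 1 to 3 and at 1.17, 0.35 and 0.48 FPKM in WT libraries 1 to 3. These overlap, and the gene was below the minimum for the test. GRMZM5G808366, described as auxin response factor 5 like ZmARF29, was at 1.16, 0.63 and 1.4 FPKM in zmte1-2 libraries 1 to 3 and at 0.54, 0.55 and 0.46 FPKM in WT libraries 1 to 3. It thus went the other way from ZmARF29, with every zmte1-2 library above every WT library, but it was below the minimum for the test and was not called without that minimum (limma adjusted p = 0.117, log2 fold change 0.59 with an SE of 0.29). Nor was ZmARF32 called in that fit, with a log2 fold change of -0.65 (limma adjusted p = 0.129).

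Summed over the 7 ARF genes, the FPKM came to 76.33, 46.60 and 69.02 in zmte1-2 libraries 1 to 3 and to 82.57, 76.10 and 87.22 in WT libraries 1 to 3. This sum overlapped between the genotypes only through zmte1-2 library 1 and WT library 2, and its make-up differed. GRMZM2G317900 made up 73.8%, 37.4% and 72.4% of it in zmte1-2 libraries 1 to 3 and 12.0%, 29.4% and 21.9% in WT libraries 1 to 3. ZmARF4 made up 1.22%, 1.09% and 1.22% in zmte1-2 libraries 1 to 3 and 5.63%, 6.01% and 5.79% in WT libraries 1 to 3. Of ZmARF30 the share was 11.8%, 34.3% and 9.45% in zmte1-2 libraries 1 to 3 and 42.8%, 32.5% and 36.7% in WT libraries 1 to 3, so that it overlapped through zmte1-2 library 2, unlike its FPKM. ZmARF29 was 0.217% to 0.300% of the sum in zmte1-2 and 1.39% to 1.60% in WT. ARF genes that the authors had not called are not part of these sums.

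**Figure D3:**
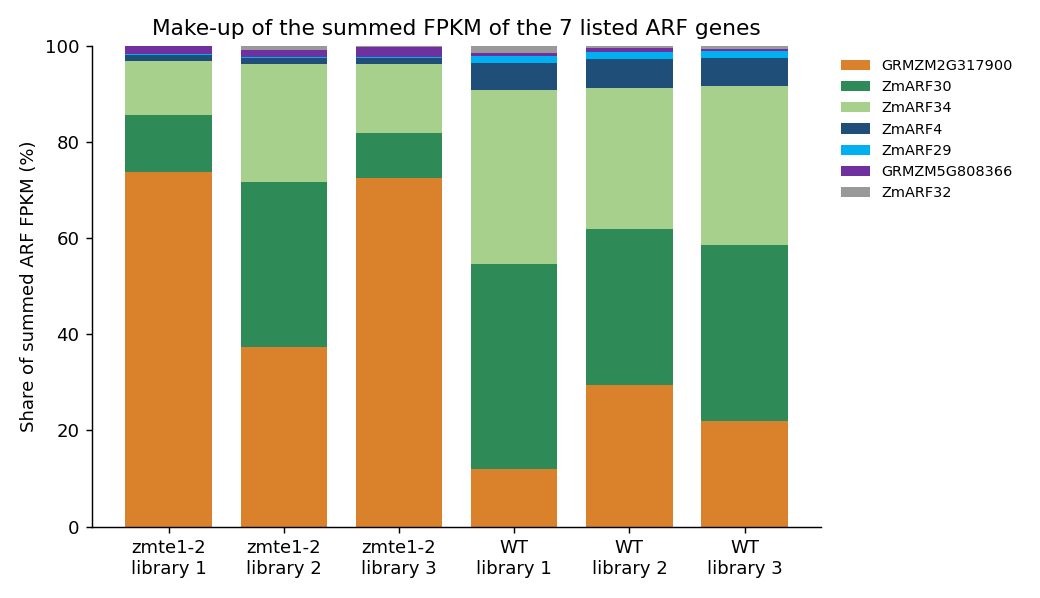
Share (%) of each of the 7 listed ARF genes in their summed FPKM, by library, with zmte1-2 on the left and WT on the right. GRMZM2G317900 takes 73.8%, 37.4% and 72.4% in zmte1-2 libraries 1 to 3 and 12.0%, 29.4% and 21.9% in WT libraries 1 to 3.

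The direction of the 4 genes was the same under every setting tried, but the sizes depended on the scaling. The median log2 fold change of all tested genes was -1.08 with the FPKM as deposited, and median-of-ratios rescaling moved it by 0.99. Relative to that median, ZmARF4 was lower by a log2 difference of -0.99 as deposited and -1.09 after rescaling, ZmARF29 by -0.31 and -0.74, and ZmARF30 by -0.50 and -0.36, while GRMZM2G317900 was above it by 2.24 and 2.38. With an added 1 in place of 0.5, ZmARF29 stood at the median itself, both at -0.94. After rescaling, ZmARF4 (log2 fold change -1.18, limma adjusted p = 0.0419) and ZmARF29 (-0.83, limma adjusted p = 0.0323) were still called lower, in contrast to ZmARF30, and GRMZM2G317900 was at 2.28 (limma adjusted p = 0.0607). Rescaling rests on the assumption that the listed genes have no shift in common. On the FPKM as deposited most were lower in zmte1-2, while the median after rescaling was -0.09. Which scale holds was not tested. ZmARF4 and ZmARF29 lost their calls without zmte1-2 library 1 (limma adjusted p = 0.0689 for ZmARF4 and 0.0704 for ZmARF29) or without WT library 3 (0.0668 and 0.0644 for the same genes), where limma called only 2 and 3 of all 3987 genes and the log2 fold changes of ZmARF4 and ZmARF29 lay between -2.17 and -2.04 and between -1.42 and -1.40.

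**Figure D4:**
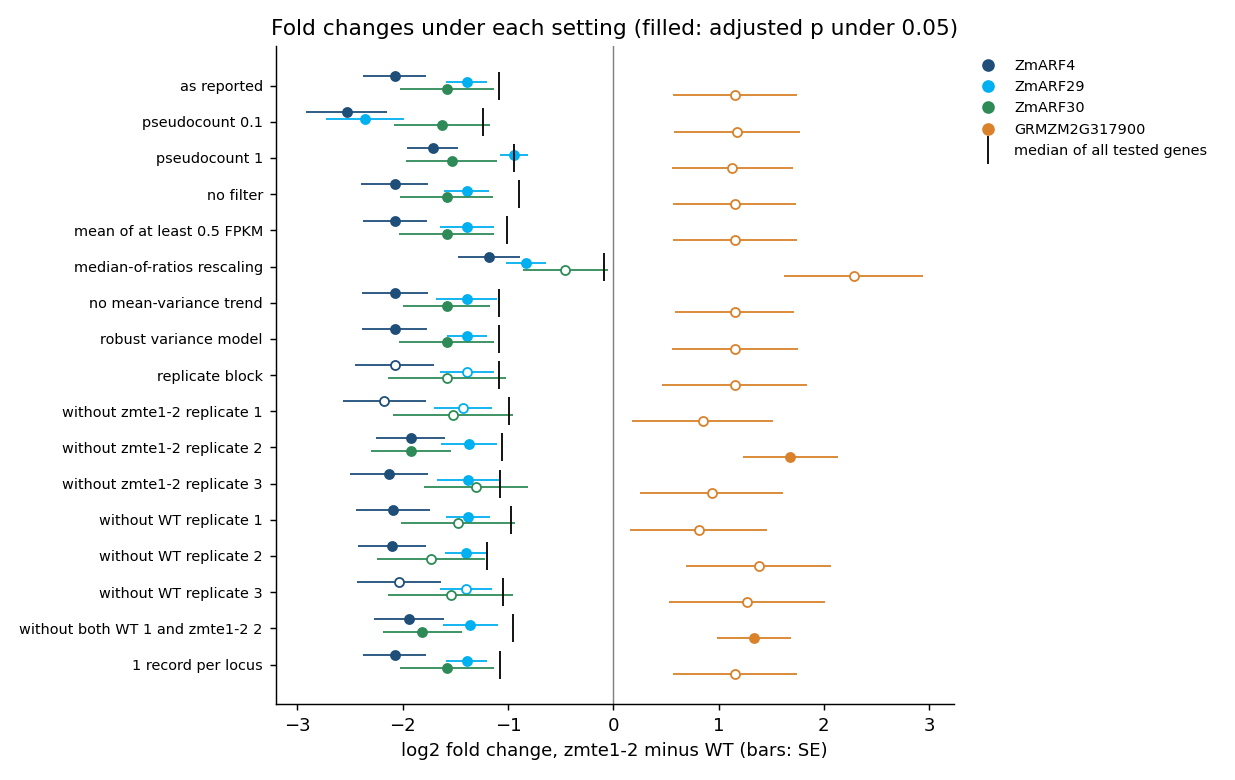
Log2 fold change (zmte1-2 minus WT) of the 4 ARF genes under each setting, with bars of 1 SE; filled points have a limma adjusted p under 0.05 and the black ticks mark the median of all tested genes. ZmARF4 and ZmARF29 move little when a library is left out, while GRMZM2G317900 ranges from 0.81 to 1.68.

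Of the genes whose products act with the ARFs, those with a KEGG orthology of the auxin response were counted, without the ARFs themselves. Of 37 tested genes 15 fell, 2 rose and 20 did not pass, with a median log2 fold change of -1.47 beside -1.08 for all tested genes. The genes that fell were 40.5% of the 37 and those that rose 5.41%, near the 34.2% and 6.02% over all tested genes, which are also the shares to set beside each count that follows. Among the auxin receptors of the TIR1 type 2 of 3 fell. The most abundant, GRMZM2G135978, was at 9.08 ± 2.27 FPKM in zmte1-2 and 21.3 ± 6.31 FPKM in WT (SD, n = 3 each) and did not pass (limma adjusted p = 0.0533). Of the AUX1/LAX carriers, which bring auxin into the cell, 2 of 3 fell, among them auxin import carrier 1 (GRMZM2G129413) at 8.57 ± 6.24 FPKM in zmte1-2 and 32.4 ± 9.61 FPKM in WT (SD, n = 3 each, limma adjusted p = 0.0442). Of the Aux/IAA genes, whose products can bind and inhibit ARFs, 3 of 10 fell (30.0%) and 1 rose. The summed FPKM of the 11 listed genes was 395 to 920 in zmte1-2 and 309.96 to 384 in WT. The most abundant by this orthology, GRMZM2G115357, was at 114.93, 650.16 and 61.15 FPKM in zmte1-2 libraries 1 to 3 and at 158.09, 125.05 and 86.16 FPKM in WT libraries 1 to 3 and did not pass (limma adjusted p = 0.619). In zmte1-2 library 2, which had the highest sum, this gene made up most of it. Of the early response genes, 8 of 20 SAUR genes fell and 1 rose, and the most abundant, GRMZM2G420812, was at 8.48 ± 3.57 FPKM in zmte1-2 and 37.4 ± 17.3 FPKM in WT (SD, n = 3 each, limma adjusted p = 0.0303). The 1 tested GH3 gene, GRMZM2G378106, which codes for an enzyme that conjugates auxin to amino acids, was at 12.16, 66.67 and 7.05 FPKM in zmte1-2 libraries 1 to 3 and at 3.23, 3.81 and 7.13 FPKM in WT libraries 1 to 3 and did not pass (limma adjusted p = 0.0815).

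The genes most like each ARF over the 6 libraries were ranked by the Pearson correlation of log2(FPKM + 0.5), as a description, since the 6 points fall into the 2 genotypes. For ZmARF4 they were GRMZM2G092925, described as protein HVA22 (r = 0.999), ZmARF29 (r = 0.992) and GRMZM2G085392, described as early nodulin-like protein 3 (r = 0.992). For ZmARF29 they were GRMZM2G120449, described as ergosterol biosynthetic protein 28 (r = 0.996), GRMZM2G085678, described as ethylene-responsive transcription factor WIN1 (r = 0.996), and GRMZM2G067921, described as delayed flowering1 (r = 0.995), a bZIP factor of the floral transition. GRMZM2G067921 was at 4.37, 4.38 and 3.74 FPKM in zmte1-2 libraries 1 to 3 and at 27.81, 21.62 and 26.06 FPKM in WT libraries 1 to 3, with little spread within a genotype, as for ZmARF29 itself.

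For ZmARF30 the most similar genes were a leucine-rich repeat receptor kinase (GRMZM2G091632, r = 0.998), GRMZM2G315375, described as PGP1 (r = 0.998), a transporter of the ABCB type that carries auxin out of the cell, and a bZIP factor (GRMZM2G077124, r = 0.997). PGP1 was at 10.97, 22.26 and 8.95 FPKM in zmte1-2 libraries 1 to 3 and at 54.26, 33.80 and 47.28 FPKM in WT libraries 1 to 3, and it fell (log2 fold change -1.73, SE 0.47, limma adjusted p = 0.0346). For GRMZM2G317900 they were ribosome-inactivating protein2 (GRMZM2G119705, r = 0.999), GRMZM5G833406, described as IAA-amino acid hydrolase ILR1-like 4 (r = 0.998), an enzyme family that in *Arabidopsis* releases auxin from its conjugates, and a peroxidase 52-like gene (GRMZM2G006727, r = 0.997). GRMZM5G833406 was at 57.28, 6.92 and 52.74 FPKM in zmte1-2 libraries 1 to 3 and at 2.28, 9.85 and 7.38 FPKM in WT libraries 1 to 3, with zmte1-2 library 2 again among the WT libraries, and it missed the threshold (limma adjusted p = 0.0733, log2 fold change 2.22).

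Lists of meristem, dividing-cell and green-tissue genes were read beside the ARFs, and their part in the ARF levels was not tested. The meristem gene *KN1* (GRMZM2G017087), the only KNOX gene found by the descriptions searched, was at 35.33, 81.65 and 16.97 FPKM in zmte1-2 libraries 1 to 3 and at 142.66, 75.29 and 108.02 FPKM in WT libraries 1 to 3, and it did not pass (limma adjusted p = 0.0756). Its level in zmte1-2 library 2 lay among WT, and ZmARF30 too was nearest to WT in that library, whereas ZmARF4 and ZmARF29 were at their lowest there. Of 47 tested core histone genes, which mark dividing cells, 14 fell and 1 rose, a share of 29.8% lower that is below the 34.2% over all tested genes. Their median log2 fold change was -1.32, beside -1.08 for all tested genes. Every zmte1-2 library was below every WT library in 42 of the 50 listed histone genes and above in 1. Among all listed genes this was so for 48.8% and 11.4%. The sum over the 50 listed histone genes was 2996 to 5482 FPKM in zmte1-2 and 6652 to 11334 FPKM in WT. Of 18 tested antenna protein loci, which mark green tissue, 13 fell and 0 rose, 72.2% lower beside 34.2% over all tested genes, with a sum over the 20 listed loci of 103 to 149 FPKM in zmte1-2 and 214 to 856 FPKM in WT. A locus listed under 2 identifiers with the same values was counted once. None of the listed genes of these lists was at 0 in all libraries.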

How the data were processed

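The authors deposited 1 table with the FPKM of 3 zmte1-2 libraries and 3 WT libraries, values that the authors had already divided by transcript length and library size. The deposited table also holds the mean FPKM per genotype and the authors' own comparisons as log2 ratios, p-values and q-values, which were not used. Sequencing was done at BGI. The sources used here name no aligner, counting method or genome build. The labels call the mutant by another spelling, and its columns carry the first name of the line. Library numbers were read as replicates, although no source says that they are not node positions. In 18 cases 2 identifiers share a locus and all values; none is among the 4 genes.

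The two-sided test was limma 3.58.1 (R 4.3.3, with a mean-variance trend), fitted to log2(FPKM + 0.5) for 3987 of 5546 genes, with Benjamini-Hochberg adjustment over all of them. The script was tested on simulated data. Ratios between genes were compared by an exact permutation test. The genes, the lists and the tests were chosen with earlier results of these data known. The rule for named genes took the 4 ARFs, *ZmTE1*, other listed ARFs, the 3 described genes most correlated with each ARF and the most abundant member of each auxin list. By identifier, 2 of the 4 genes matched RefSeq (assembly Zm-B73-REFERENCE-NAM-5.0), used for names only. Alternatives were 2 pseudocounts, 2 filters, rescaling, 2 variance models, a block for the library number, and the omission of each library or of a pair. Depth is unknown, so precision rests on the spread between libraries.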

Additional observations from a re-analysis of the deposited data

How the results depend on the processing

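All 4 log2 fold changes kept their direction under the 16 alternatives, of which 1, with each locus counted once, was chosen after seeing the data and changed no call of the 4 genes. ZmARF4 and ZmARF29 kept their call except with the replicate block and without zmte1-2 library 1 or WT library 3, and ZmARF30 lost it in 7 alternatives. The deviations of equally numbered libraries correlated at -0.30, -0.40 and 0.41, and those of unequally numbered libraries at -0.53 to 0.52. With 3 libraries per genotype these values cannot decide whether the library numbers pair the samples. With the replicate block, limma called 2 of all 3987 genes (1880 at an unadjusted p under 0.05), and the log2 fold changes of -2.08 for ZmARF4 (adjusted p = 0.0549), -1.39 for ZmARF29 (adjusted p = 0.0549) and -1.58 for ZmARF30 (adjusted p = 0.0967) did not pass, which left 0 of the ARFs lower and 0 auxin genes lower or higher. Rescaling by median of ratios gave -0.45 for ZmARF30 (adjusted p = 0.528) and 206 lower and 532 higher genes among all those tested with limma, beside 1363 lower and 240 higher as deposited.

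With each library left out in turn, limma called 2 to 2754 of all tested genes, beside 1603 with all libraries, and the log2 fold change ranged from -2.17 to -1.92 for ZmARF4, from -1.42 to -1.37 for ZmARF29 (-1.36 with WT library 1 and zmte1-2 library 2 both left out), from -1.92 to -1.31 for ZmARF30 and from 0.81 to 1.68 for GRMZM2G317900. The ARFs called lower ranged from 0 to 3. Of the 42 tested auxin genes with the ARFs included, 19 were lower and 2 higher, ranging from 0 to 27 lower and from 0 to 8 higher with a library left out, and 4 were lower after rescaling. Over all 3987 tested genes 1363 were lower and 240 higher. With a library left out these ranged from 1 to 1949 lower and from 1 to 805 higher, and 206 were lower after rescaling. The lower auxin counts thus moved with those of the whole table. The higher counts did not always do so, since after rescaling 2 auxin genes were higher, as before, beside 532 over all tested genes. No auxin gene was higher without the FPKM minimum or with a minimum on the mean, beside 194 and 204 over all genes in those fits. Leaving out both WT library 1 and zmte1-2 library 2 gave 1.34 for GRMZM2G317900 and 7 higher auxin genes, beside 755 higher over all tested genes. The unknown number of fragments limits what the low FPKM of ZmARF29 and ZmARF32 can show.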
